A study of Homo sapiens with 8 samples.

Results

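The genes of oxidative phosphorylation, which build the respiratory chain and the ATP synthase of mitochondria, were followed in A375 human melanoma cells with and without serum. Members were protein-coding genes chosen by symbol stems of subunits of complexes I to V and cytochrome c, which leaves out a few subunits and isoforms such as *NDUFAB1*. That rule gave 99 of the 58051 genes in the deposited count tables. Of these, 13 are encoded by the mitochondrial genome (7 for complex I, 1 for complex III, 3 for complex IV and 2 for complex V) and 86 by the nucleus. The nuclear members comprised 36 genes of complex I, 4 of complex II, 10 of complex III, 16 of complex IV (with *NDUFA4*, an associated subunit), 19 of complex V and *CYCS*, the gene of somatic cytochrome c.

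Complexes I to IV pass electrons from NADH and succinate to oxygen, complexes I, III and IV pump protons out of the matrix, and complex V, the ATP synthase, uses the returning protons to make ATP. Complexes I, III, IV and V mix subunits from both genomes, whereas complex II is wholly nuclear. Mitochondrial messenger RNAs are cut from long transcripts of the mitochondrial genome by nuclear-encoded enzymes, so that the supply of both sets of subunits depends on separate transcription systems.

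A375 is an established line from a human melanoma. In the study, 4 lines labelled wild type (WT1 to WT4) were each kept for 12 h in DMEM with 10% fetal bovine serum or in DMEM without serum, after growth with serum. Total RNA was depleted of ribosomal RNA and sequenced, which gave 1 library per line and condition, or 4 with serum and 4 without. The study's methods mention parental wild-type lines and knockout lines raised from single colonies of A375. They do not say how WT1 to WT4 came to be separate lines. Without a term for the line, p-values therefore measure the spread between these lines. Where the line is also fitted, they rest on the spread left after differences between lines are removed.

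Reads counted on genes ranged from 29759279 to 73341551 per library. Reads without a unique place made up 22.7% in WT1 and 16.8% in WT2 with serum, against 5.73% to 10.1% in the other 6 libraries. The same 2 libraries held the most mitochondrial ribosomal RNA, 0.374% and 0.123% of counts on genes, against at most 0.0343% elsewhere. Of the melanocyte lineage markers, *MITF* and *S100B* averaged 40.2 and 18.9 CPM (counts per 1000000, on library sizes scaled by TMM) with serum. The pigment cell markers *DCT*, *MLANA* and *PMEL* were between 0.714 and 1.23 CPM, *SOX10* had no count in any library, and *TYR* had none with serum. Exon overlap with other genes, which leaves reads unassigned, was not computed for these markers, so a lack of counts does not show that *SOX10* was absent. Markers of blood, endothelial and epithelial cells averaged at most 0.336 CPM with serum, and the 1 tested was not called. Of 6 tested melanocyte markers, *MITF* fell by 0.28 without serum (edgeR adjusted p = 0.0496, kept in 3 of 12 leave-out fits and lost after GC correction at -0.15) and *S100A1* rose by 0.84 (0.00605).

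In comparisons across genes, a gene was called when edgeR's quasi-likelihood test gave a Benjamini-Hochberg adjusted p under 0.05 over all 17671 tested genes. Log2 fold changes are serum-free against serum and carry their standard error (SE). Counts high enough for the test were found for 94 members, all 13 mitochondrial and 81 nuclear ones. The other 5 were *NDUFA7*, *UQCRHL*, *COX6A2*, *ATP5MF-PTCD1* and *ATP5MGL*. Of them, *COX6A2*, the heart and muscle isoform of a complex IV subunit, and the readthrough gene *ATP5MF-PTCD1* had no count in any library, which allows up to 0.0409 to 0.101 CPM of assignable reads per library by counting error alone. Of their exon bases, 38.3% and 93.4% lie in other genes, where reads could not be assigned, so this does not limit their expression. *NDUFA7* was between 0.14 and 0.239 CPM with serum, and 32.5% of its exon bases lie in other genes.

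The first comparison asked how the members responded to 12 h without serum. *CYCS* fell to 0.51 of its level with serum, and 14 other nuclear members fell by less. Most nuclear members, 65 of 81, were not called, 15 were called lower and 1, *NDUFV1*, higher. Lower calls took 18.5% of the nuclear members, near the background of 14.0% (2477 of 17671 genes), and higher calls 1.23% against a background of 11.1%. None of the 13 mitochondrial members was called by edgeR, DESeq2 or limma's voom, and 2 had an unadjusted p under 0.05 with each tool.

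Because the libraries of a line deviate together, the line number was also fitted as a replicate block. With it, 31 nuclear members were called lower and 3 higher (background 22.4% lower and 23.2% higher), and 4 mitochondrial members lower and 5 higher. All 16 nuclear calls made without the block were among those 34. The median log2 fold change was -0.11 over nuclear members, 0.00 over mitochondrial members and 0.03 over all tested genes. With library sizes alone and no TMM factors, these medians were 0.01, 0.12 and 0.15, so the nuclear median lay below that of all genes on both scales, but turned from lower to slightly higher. By line, the nuclear median ranged from -0.28 in WT4 to -0.02 in WT3. Without the serum libraries of WT1 and WT2, 4 nuclear members were called lower (*UQCR10*, *UQCRFS1*, *ATP5MC3* and *CYCS*), where 3.9% of all genes were. The other 11 had log2 fold changes of -0.29 to -0.42 in that fit of 6 libraries, beside -0.24 to -0.53 with all 8. With the block in WT3 and WT4 alone, 13 were called lower, against 12.2% of all genes.

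**Figure D1:**
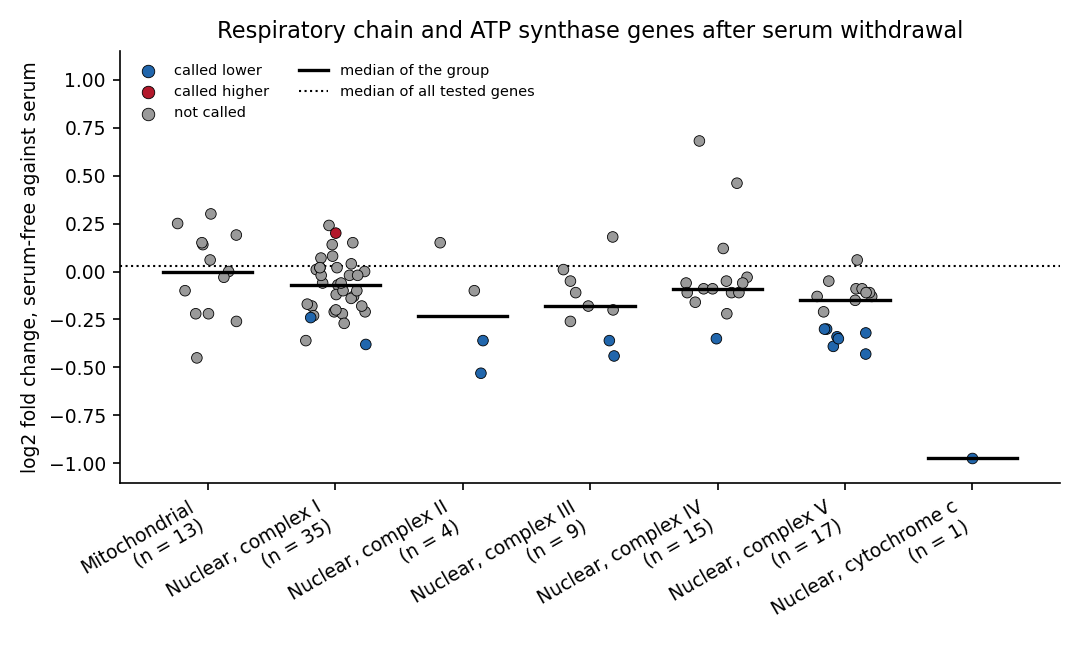
Log2 fold change of each tested member, serum-free against serum (y axis), for mitochondrial-encoded members and nuclear-encoded members by complex (x axis); points are genes, bars the medians of the groups and the dotted line the median of all tested genes (0.03). Of the 15 lower calls, 7 lie in complex V, and *CYCS* is lowest at -0.97.

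*CYCS*, whose product carries electrons from complex III to complex IV and also triggers apoptosome assembly once released, lies on chromosome 7 (25118656 to 25125260, GRCh38). Its level in WT1 to WT4 was 269, 233, 228 and 191 CPM with serum and 124, 131, 121 and 93.3 CPM without. All 4 serum-free libraries were below all serum libraries, and the log2 ratio within lines was -1.11, -0.83, -0.91 and -1.04. *CYCS* thus fell by 0.97 on the log2 scale (SE 0.13, edgeR adjusted p = 0.00157), to 0.51 of the serum level, and was called in all 34 alternatives tried. Pseudogenes named after *CYCS* held counts equal to 1.24% of its own.

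Complex II, succinate dehydrogenase, also feeds the tricarboxylic acid cycle, and 2 of its 4 genes were called lower (14.0% of all genes were). *SDHD*, a membrane anchor subunit, was at 65.6, 55.2, 55.9 and 46.8 CPM with serum in WT1 to WT4 and at 42.2, 42.2, 38.5 and 32.1 CPM without. The conditions did not overlap, and *SDHD* fell by 0.53 (SE 0.12, edgeR adjusted p = 0.0111). *SDHB*, the iron-sulfur subunit, was at 127, 142, 131 and 130 CPM with serum and 103, 112, 108 and 90.1 CPM without. It fell by 0.36 (SE 0.08, edgeR adjusted p = 0.00967), again without overlap. *SDHA*, the flavoprotein that oxidizes succinate, went from 92.1, 99.2, 103 and 106 CPM to 111, 111, 113 and 111 CPM. Its log2 fold change of 0.15 was not called (edgeR adjusted p = 0.1) but passed with the block (0.0336), and pseudogenes of *SDHA* held counts equal to 15.1% of its own. The other membrane anchor, *SDHC*, was at -0.10 (edgeR adjusted p = 0.255).

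In complex III, which passes electrons from ubiquinol to cytochrome c, 2 of 9 tested nuclear genes were called lower (22.2%, against 14.0% of all genes). *UQCRFS1*, the Rieske iron-sulfur protein, was at 93, 89.1, 101 and 100 CPM with serum and 66.4, 73, 76.3 and 67 CPM without. The conditions did not overlap, and the gene fell by 0.44 (SE 0.07, edgeR adjusted p = 0.00337), a call kept in all 34 alternatives. *UQCR10*, a small accessory subunit, fell by 0.36 (SE 0.07, edgeR adjusted p = 0.00712), from 29, 32.2, 32.3 and 32.9 CPM to 23.4, 25.4, 25.3 and 24.2 CPM. With the block, 5 of the 9 were lower (55.6%, against 22.4% of all genes) and 1 higher (11.1%, against 23.2%). The latter was *UQCRC1*, a core subunit (log2 fold change 0.19, edgeR adjusted p = 0.0115), whose call was lost after GC correction with the block (0.03, adjusted p = 0.499). *CYC1*, which encodes the heme protein cytochrome c1, had a log2 fold change of -0.05 (edgeR adjusted p = 0.72), but was called lower after GC correction (-0.29, edgeR adjusted p = 0.00165).

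In complex V, 7 of 17 tested genes were lower (41.2%, against 14.0% of all genes) and none higher (11.1% of all genes). With the block 10 were lower (58.8%, against 22.4%) and none higher. The called genes lie in the central stalk, the peripheral stalk and the membrane part. Of the catalytic head, neither *ATP5F1A* (-0.09, edgeR adjusted p = 0.282) nor *ATP5F1B* (-0.13, 0.0966) was called without the block. In the central stalk, *ATP5F1C* (subunit gamma) fell by 0.32 (edgeR adjusted p = 0.0088), while *ATP5F1D* and *ATP5F1E* were not called (0.568 and 0.331). In the peripheral stalk, *ATP5PB* fell by 0.39 (adjusted p = 0.00497), *ATP5PF* by 0.30 (0.0211) and *ATP5PO* by 0.35 (0.0401), all in edgeR. After GC correction *ATP5PO* was not called (-0.28, edgeR adjusted p = 0.0567), but it was with correction and block (0.0121). In the membrane part, *ATP5MC3* (rotor subunit c) fell by 0.30 (edgeR adjusted p = 0.00709, but 0.298 after GC correction, at -0.13), *ATP5MG* by 0.43 (0.00733) and *ATP5MK* by 0.34 (0.00653). These 7 were chosen as called, and in none did the conditions overlap. Over all 81 nuclear members, the conditions did not overlap in 20 with lower levels without serum (24.7%, against 15.0% of all tested genes) and in 3 with higher levels (3.7%, against 12.6%). The calls of *ATP5PO* and *ATP5PF* were kept in 3 and 7 of 12 leave-out fits, those of the other 5 in at least 10.

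*ATP5PB* had 224, 225, 232 and 207 CPM with serum and 168, 171, 185 and 154 CPM without. *ATP5MK* had 108, 106, 116 and 102 CPM with serum and 83.9, 88.1, 89.2 and 79.6 CPM without. In *ATP5PF*, 37.3% of exon bases are shared with the neighbouring *GABPA* and *JAM2*, and in *ATP5PO* 21.6% with 2 other genes, so part of their reads could not be assigned. The catalytic subunit gene *ATP5F1B* had 974, 947, 1003 and 948 CPM with serum and 880, 863, 922 and 861 CPM without. Its levels did not overlap either, but its log2 fold change of -0.13 was not called without the block (edgeR adjusted p = 0.0966) and was called with the block (0.0286) or after GC correction (0.0264). The 3 genes for subunit c encode the same mature protein. Of these, *ATP5MC1* and *ATP5MC2* had log2 fold changes of -0.05 and -0.09 (edgeR adjusted p = 0.726 and 0.443), and whether they differ from *ATP5MC3* was not tested.

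**Figure D2:**
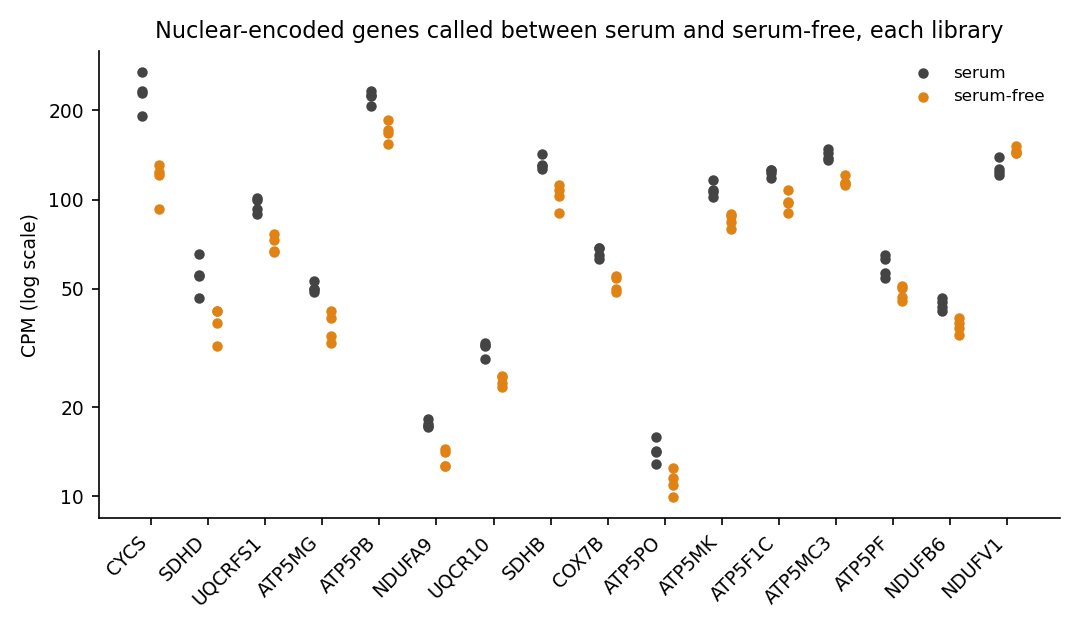
CPM on a log scale (y axis) of the 16 nuclear-encoded members called without the block (x axis, ordered by log2 fold change); each point is 1 library, 4 with serum and 4 without. The genes shown were chosen as called, and the groups of points are separate in each (15.0% of all tested genes were separate and lower, 12.6% separate and higher), with *NDUFV1* the only one of them higher without serum.

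Complexes I and IV had few calls. In complex I, the entry point for NADH, 2 of 35 tested nuclear genes were lower (5.71%, under the 14.0% of all genes) and 1 higher (2.86%, under 11.1%). With the block 10 were lower (28.6%, above the 22.4% of all genes) and 1 higher (2.86%, under 23.2%). *NDUFA9*, an accessory subunit, was at 17.6, 18.2, 17.2 and 17.3 CPM with serum and 14.4, 14.1, 12.7 and 12.7 CPM without, and fell by 0.38 (SE 0.08, edgeR adjusted p = 0.0106). *NDUFB6*, an accessory subunit of the membrane arm, fell by 0.24 (SE 0.07, edgeR adjusted p = 0.0313), a call kept in 3 of 12 leave-out fits and lost after GC correction (-0.12, adjusted p = 0.302). *NDUFV1*, the flavoprotein that takes electrons from NADH, was at 121, 127, 124 and 139 CPM with serum and 144, 151, 146 and 144 CPM without. It rose by 0.20 (SE 0.06, edgeR adjusted p = 0.0447), but was not called after a correction for GC content (log2 fold change 0.03, edgeR adjusted p = 0.745) nor in 10 of 12 leave-out fits, which each omitted a single library or line.

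In complex IV, cytochrome c oxidase, 1 of 15 tested nuclear genes was lower (6.67%, under the 14.0% of all genes) and with the block 3 were (20%, against 22.4%). *COX7B*, a small accessory subunit, was at 63, 68.7, 68.8 and 65.2 CPM with serum and 50.1, 54.3, 55.4 and 48.9 CPM without. It fell by 0.35 (SE 0.07, edgeR adjusted p = 0.00608). The changes of *COX4I1*, *COX7A2* and *NDUFA4* were between -0.11 and -0.03 and none was called. Isoform pairs were unequal in level per length. With serum, *COX6B1* was at 87 ± 11.2 RPKM (CPM per kilobase of merged exons, SD, n = 4) and its testis isoform *COX6B2* at 0.0755 ± 0.0329 RPKM. *COX7A2* was at 40.2 ± 0.85 RPKM and the muscle isoform *COX7A1* at 0.445 ± 0.106 RPKM, while *COX7B* was at 22 ± 0.944 RPKM and *COX7B2* at 6 ± 1.06 RPKM.

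The windows just upstream of nuclear members were searched for the letters of 3 factors often found at respiratory genes. These were CGCATGCG for NRF1, CCGGAAG for ETS factors such as GABPA and ATGGCGG for YY1, on both strands, in the 300 bases from 250 before to 50 after the start site. RefSeq sequences (GRCh38.p14) matched 69 of the 86 nuclear members. The NRF1 letters stood in 14.5% of these and in 2.19% of all 27305 windows. The ETS letters stood in 29% against 10.7%, and the YY1 letters in 27.5% against 5.72%. YY1 letters were in 41.9% of 31 complex I windows and 7.69% of 13 complex V windows, and since they begin with ATG, a match past the start site may be a translation start. Of the 14 matched members called lower, 21.4% held NRF1 letters, 35.7% ETS letters and 35.7% YY1 letters, against 13.5%, 28.8% and 25% of 52 that were not called. These shares come from few genes and were not tested. The 250 bases upstream of *CYCS*, the member that fell most, and of the 3 lower members with NRF1 letters are shown, with matches of any of the 3 motifs in capitals. The upstream bases of *CYCS* hold no exact match of the 3. Only exact matches were searched, so near matches, such as agcatgcg in *CYCS* for the NRF1 letters, were not counted.
CYCS, chr7:25125261-25125510, minus strand: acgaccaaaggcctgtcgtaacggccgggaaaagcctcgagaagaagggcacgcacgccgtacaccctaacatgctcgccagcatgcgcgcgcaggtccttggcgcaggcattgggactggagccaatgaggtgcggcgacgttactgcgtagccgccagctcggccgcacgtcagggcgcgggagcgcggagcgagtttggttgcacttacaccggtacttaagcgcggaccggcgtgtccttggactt
SDHD, chr11:112086623-112086872, plus strand: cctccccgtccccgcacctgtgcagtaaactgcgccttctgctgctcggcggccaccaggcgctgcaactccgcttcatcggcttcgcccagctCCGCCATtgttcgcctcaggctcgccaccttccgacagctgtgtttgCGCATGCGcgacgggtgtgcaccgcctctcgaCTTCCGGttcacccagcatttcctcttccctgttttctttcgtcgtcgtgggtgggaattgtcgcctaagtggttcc
ATP5F1C, chr10:7787927-7788176, plus strand: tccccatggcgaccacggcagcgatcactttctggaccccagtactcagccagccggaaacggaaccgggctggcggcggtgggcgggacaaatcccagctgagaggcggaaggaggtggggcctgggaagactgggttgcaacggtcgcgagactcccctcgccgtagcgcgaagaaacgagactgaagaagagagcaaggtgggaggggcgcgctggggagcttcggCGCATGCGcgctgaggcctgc
ATP5PF, chr21:25735055-25735304, minus strand: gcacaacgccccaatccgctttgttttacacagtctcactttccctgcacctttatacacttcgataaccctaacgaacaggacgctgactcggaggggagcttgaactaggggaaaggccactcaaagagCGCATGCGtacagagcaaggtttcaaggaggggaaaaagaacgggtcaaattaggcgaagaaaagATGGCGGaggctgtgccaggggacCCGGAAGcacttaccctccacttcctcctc

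Members called lower were on average AT-rich. The median GC content of transcripts was 42.4% in the 15 lower members, 47.8% in the 65 not called and 59.4% in *NDUFV1*. Across the 81 members, log2 fold change and GC content had a Spearman correlation of 0.50, and across 17425 genes one of 0.36. These are descriptions over genes of the same 8 libraries. After a smooth of each library on GC content was removed, the correlation over members was -0.16, 22 members were lower and none higher (27.2% and 0%, against 15.5% and 11.5% of the genes with a GC value). With the block as well, 31 were lower and 3 higher (38.3% and 3.7%, against 23.1% and 23.6%). Of the 15 lower members, 12 were called after the correction and 13 with correction and block. *NDUFB6* and *ATP5MC3* were lost in both, with log2 fold changes of -0.12 and -0.13 (edgeR adjusted p = 0.0995 and 0.071 with correction and block). *COX7B*, *ATP5MG* and *ATP5PB* were still called after the correction, at -0.23, -0.28 and -0.24. With the block, 23 of the 31 lower calls were shared between the fits with and without the correction. The GC-rich *CYC1*, *NDUFB7* and *ATP5F1D* were among the 8 called only with it. What part of the changes goes with base composition was not tested.

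**Figure D3:**
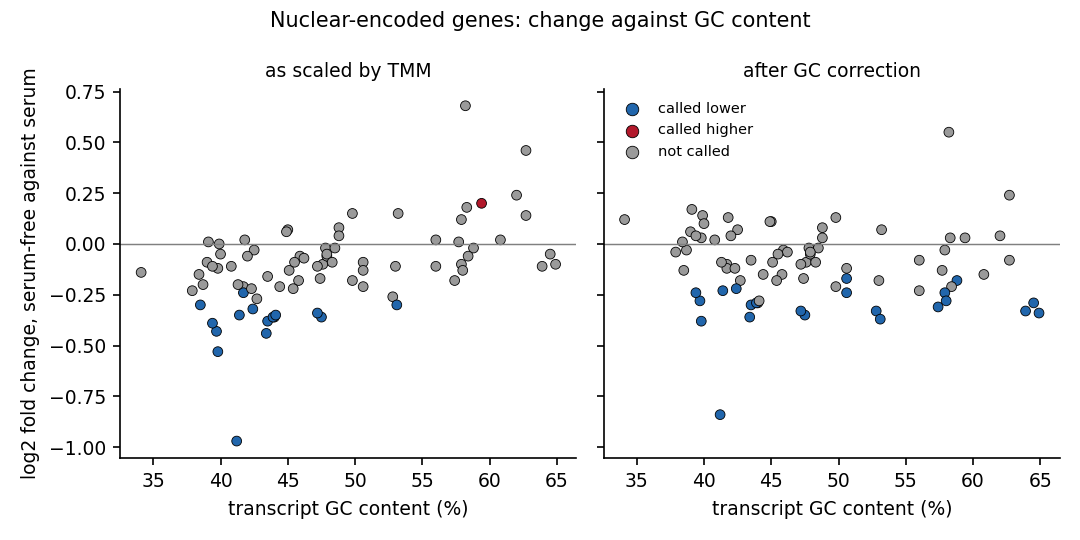
Log2 fold change, serum-free against serum (y axis), against transcript GC content in percent (x axis) for the 81 tested nuclear-encoded members, as scaled by TMM (left) and after GC correction (right); points are genes, coloured by call. Lower calls lie mostly under 50% GC on the left, where the correlation was 0.50, and spread along the axis on the right, where it was -0.16.

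The second comparison set the mitochondrial against the nuclear genome. The 13 mitochondrial members took 1.21%, 0.98%, 1.19% and 1.12% of counts on genes with serum in WT1 to WT4 and 1.33%, 1.09%, 1.47% and 1.38% without. The means were 1.12% ± 0.104 and 1.32% ± 0.162 (SD, n = 4). The share was higher without serum in each line, though WT2 without serum stayed below 3 of the serum libraries. The nuclear members took 0.707% ± 0.0172 with serum and 0.698% ± 0.0233 without (SD, n = 4), less than the spread between lines. Counts on mitochondrial per nuclear member genes, a ratio that no scaling changes, were 1.76, 1.39, 1.69 and 1.54 with serum and 1.97, 1.55, 2.02 and 2.03 without.

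How both sides of this ratio moved depends on the scaling. On TMM-scaled library sizes the mitochondrial sum without serum was 1.007, 1.045, 1.142 and 1.118 times that with serum in WT1 to WT4, and the nuclear sum 0.9, 0.935, 0.953 and 0.846 times. On unscaled totals the mitochondrial share was higher and the nuclear share nearly level. In these bulk samples, less RNA per cell and other changes of total RNA cannot be told apart from changes in single genes.

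**Figure D4:**
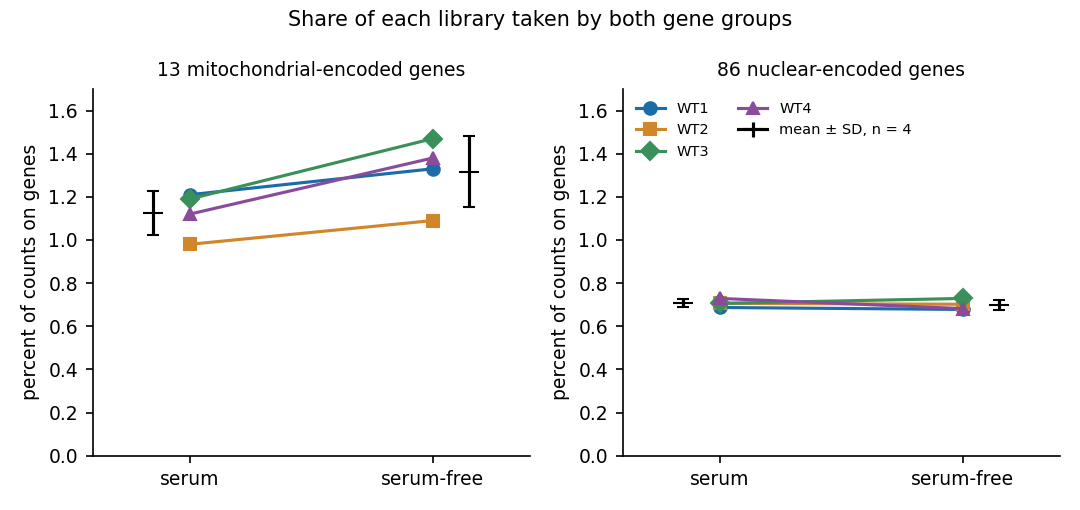
Percent of counts on genes (y axis) taken by the 13 mitochondrial-encoded members (left) and the 86 nuclear-encoded members (right) with and without serum; each line joins the 2 libraries of 1 cell line, and black marks give mean ± SD (n = 4). The mitochondrial share was higher without serum in each line, while the nuclear means were 0.707% and 0.698%.

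Per length, mitochondrial messenger RNAs were far above nuclear ones. With serum their median was 801 RPKM, from 255 ± 85 RPKM in *MT-ATP8* to 1824 ± 280 RPKM in *MT-CO1* (SD, n = 4). The nuclear members had a median of 20.1 RPKM on merged exons, 32.9 RPKM on the longest transcript and 54.7 RPKM on the canonical transcript. The highest nuclear member was *ATP5F1B* with 432 ± 11.9 RPKM on merged exons, above *MT-ATP8* alone among the mitochondrial members. On the longest or canonical transcript it was at 550 RPKM, also above *MT-ND4L* (516 RPKM). Within complexes, the highest nuclear levels on merged exons were *NDUFS5* in complex I (159 RPKM), *SDHC* in II (93.8 RPKM), *UQCRH* in III (218 RPKM) and *COX8A* in IV (129 RPKM). In complex IV the highest was *COX6B1* on the longest transcript (152 RPKM) and *COX4I1* on the canonical transcript (269 RPKM). The intronless copy *UQCRHL* was at 0.011 RPKM. *NDUFV2*, a core subunit of complex I, was at 0.575 RPKM on merged exons. Of its exon bases, 28.4% lie in another gene, and its pseudogene held counts equal to 20.7% of its own, so this level is uncertain.

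Among the mitochondrial members, some were higher and others lower without serum within every line. *MT-CO1*, the catalytic subunit of complex IV, had 2913, 2232, 3270 and 2833 CPM with serum in WT1 to WT4 and 3468, 2596, 3922 and 3819 CPM without. It was higher in each line, although the groups overlapped because lines differed. Its log2 fold change was 0.30 without the block (SE 0.15, edgeR adjusted p = 0.175) and 0.29 with it (SE 0.05, edgeR adjusted p = 1.99e-04). *MT-CO2*, which takes electrons from cytochrome c, had 728, 585, 840 and 801 CPM with serum and 853, 666, 1028 and 956 CPM without. With the block its log2 fold change was 0.24 (SE 0.05, edgeR adjusted p = 8.96e-04). The proton-pumping subunits *MT-ND4* and *MT-ND5* of complex I were also higher with the block, by 0.19 (edgeR adjusted p = 0.00599) and 0.14 (0.0266). *MT-CYB*, cytochrome b of complex III, was higher by 0.15 (0.0218).

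The opposite held for 4 members. *MT-ND2* had 1164, 962, 918 and 855 CPM with serum and 838, 795, 892 and 735 CPM without, lower in each line, and its log2 fold change with the block was -0.25 (SE 0.06, edgeR adjusted p = 0.00407). *MT-ND1*, from the same region of the genome, was at -0.23 (edgeR adjusted p = 0.00532). *MT-ATP8*, the shortest coding part, had 76.7, 43.8, 54 and 36.3 CPM with serum and 42.1, 37.3, 48.9 and 26.3 CPM without. With the block its log2 fold change was -0.42 (SE 0.10, edgeR adjusted p = 0.00356). *MT-ND4L* was at -0.22 (edgeR adjusted p = 0.024) but was higher without serum in WT3. *MT-ATP8* and *MT-ND4L* are not messages of their own, as they share transcripts with *MT-ATP6* and *MT-ND4*. The other members, *MT-ND3*, *MT-ND6*, *MT-CO3* and *MT-ATP6*, were between -0.11 and 0.06 with the block and were not called.

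Of the 11 fits that had the block, *MT-CO1* was called higher in 11, *MT-CO2* in 10, *MT-ND4* in 9, *MT-ND5* in 8 and *MT-CYB* in 7. *MT-ND1* was called lower in 9, *MT-ND2* and *MT-ATP8* in 8 and *MT-ND4L* in 4. GC correction with the block left 5 higher and 2 lower, where 23.6% and 23.1% of all genes were. *MT-ND4L* and *MT-ATP8* lost their calls, at -0.13 and -0.27 (edgeR adjusted p = 0.171 and 0.131). In WT3 and WT4 alone with the block, *MT-CO1* was the only one to pass, in a fit of 4 libraries. The log2 ratios of *MT-CO2* in those lines were 0.29 and 0.26 and those of *MT-ND4* 0.28 and 0.24, beside 0.24 and 0.19 in the block fit of all 4 lines. Those of lower members in WT3 and WT4 were -0.04 and -0.22 for *MT-ND2*, -0.02 and -0.34 for *MT-ND1*, and 0.08 and -0.20 for *MT-ND4L*. In WT1 and WT2, whose serum libraries stood apart, they were -0.47 and -0.28, -0.30 and -0.26, and -0.44 and -0.31. With library sizes alone and the block only *MT-ATP8* stayed lower while 6 were higher, in a fit that called 14.1% of all genes lower and 33.0% higher. *MT-RNR2*, the large mitochondrial ribosomal RNA, ranged from 107 to 2219 CPM with serum and from 19.1 to 113 CPM without, highest in WT1 and WT2 with serum. That RNA is a target of the ribosomal depletion. Its part, and that of the reads without a unique place, in the mitochondrial calls was not tested beyond these left-out libraries.

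**Figure D5:**
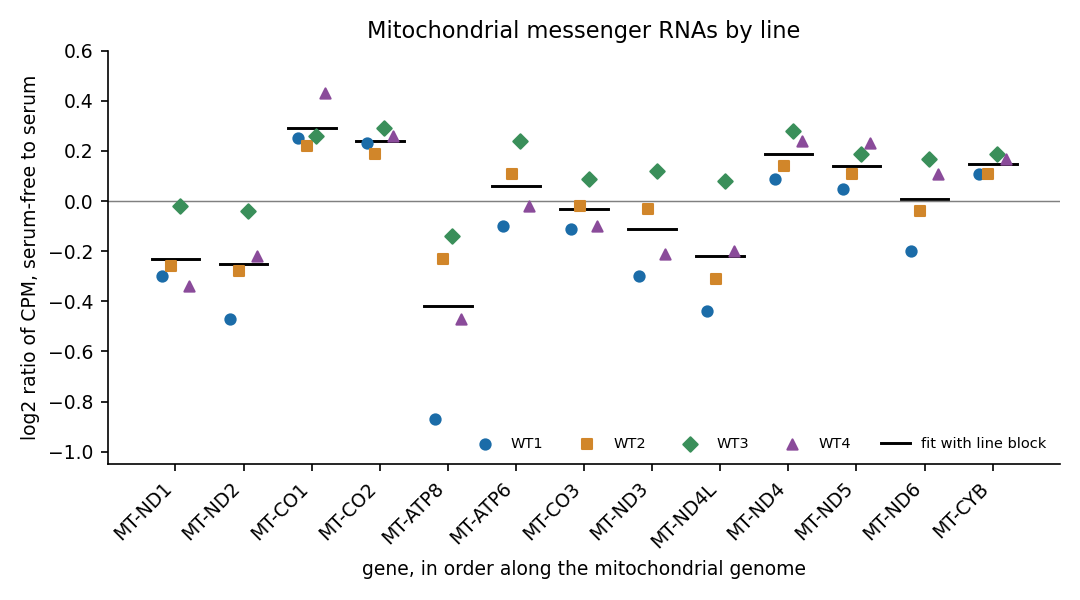
Log2 ratio of CPM without to with serum (y axis) for each mitochondrial-encoded member in order along the genome (x axis); each symbol is 1 line and the bar is the log2 fold change of the fit with the line as block. *MT-CO1*, *MT-CO2*, *MT-ND4*, *MT-ND5* and *MT-CYB* are above 0 in every line, and *MT-ND1*, *MT-ND2* and *MT-ATP8* below it.

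Ratios between mitochondrial members are free of scaling. The coding parts of *MT-ND4L* and *MT-ND4* are joined in 1 transcript, as are those of *MT-ATP8* and *MT-ATP6*. *MT-ND4L* counts per *MT-ND4* count were 0.12, 0.115, 0.0946 and 0.0898 with serum and 0.0829, 0.0843, 0.0827 and 0.0661 without, lower in each line and without overlap. *MT-ATP8* counts per *MT-ATP6* count were 0.0778, 0.0619, 0.0595 and 0.041 with serum and 0.0456, 0.0489, 0.0458 and 0.03 without, lower in each line but overlapping. In both pairs the shorter coding part was less counted without serum. *MT-CO1* counts per *MT-ND2* count went from 2.5, 2.32, 3.56 and 3.31 to 4.14, 3.27, 4.4 and 5.19. *MT-CO1* counts per *MT-CO2* count showed no such shift, with 3.54 to 4 with serum and 3.82 to 4.07 without.

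Over the 13 members, the Spearman correlation of log2 fold change was 0.58 with gene length and 0.43 with GC content, and over the 12 other than *MT-ND6* 0.29 with position. These genes share libraries and neighbours, so the values are descriptions. The coding parts of *MT-ATP8* and *MT-ATP6* share 46 bases, and pseudogenes of *MT-ATP6* in the nuclear genome held counts equal to 12.7% of its own. The strand setting of the counting is not stated, so reads of *MT-ND6*, which lies on the other strand, and of antisense transcripts could not be told apart.

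The third comparison asked which members differed between lines. Using both libraries of a line after the condition effect, 10 of 13 mitochondrial members and 4 of 81 nuclear members differed, where 22.9% of all genes did (4055 of 17671, edgeR). The mean of both conditions for *MT-CO1* was 3191, 2414, 3596 and 3326 CPM for WT1 to WT4 (edgeR adjusted p = 1.32e-04). *MT-CO2* followed the same order, with 791, 625, 934 and 878 CPM (edgeR adjusted p = 1.06e-04). WT2, the most deeply sequenced line, was lowest in both. When WT2 was left out, 2 of the 13 differed, *MT-ND4L* and *MT-ATP8*, near the 17.6% of all genes in that fit. *MT-ATP8* was at 59.4, 40.6, 51.5 and 31.3 CPM (edgeR adjusted p = 0.00199).

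The nuclear members that differed between lines were *CYCS*, *SDHD*, *ATP5F1E* and *NDUFA5*. *CYCS* was at 197, 182, 174 and 142 CPM in WT1 to WT4 (edgeR adjusted p = 0.00443) and *SDHD* at 53.9, 48.7, 47.2 and 39.5 CPM (0.0123), both lowest in WT4. Without WT4, *CYCS*, *SDHD*, *NDUFA5*, *MT-ND4L* and *MT-ATP8* were no longer called, while 7 nuclear members were (18.6% of all genes). Without WT1 the call of *SDHD* was lost, and without WT2 those of *ATP5F1E* and *NDUFA5*. *ATP5F1E*, the epsilon subunit of the ATP synthase, ran the other way, with 145, 140, 168 and 176 CPM (edgeR adjusted p = 0.0185). The response to serum also varied by line, which 1 library per line and condition cannot test. In the order WT1 to WT4, the median log2 ratio of nuclear members was -0.12, -0.05, -0.02 and -0.28, and that of mitochondrial members -0.11, -0.02, 0.17 and -0.02.

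Genes that serve the same machinery were described with lists drawn up beside the members, to be read against the 14.0% of all genes called lower and 11.1% called higher. Among assembly factors, 5 of 19 for complex I were called lower, 3 of 10 for complexes II and III, 7 of 24 for complex IV and 2 of 7 for complex V, and *SURF1* was the only one of these called higher (log2 fold change 0.34, edgeR adjusted p = 0.0498, kept in 2 of 12 leave-out fits). *CMC2*, a complex IV assembly factor, was at 30.5, 30.7, 29.9 and 25.8 CPM with serum and 17.4, 17.1, 19.3 and 17.9 CPM without, and fell by 0.71 (SE 0.09, edgeR adjusted p = 0.00116). *TMEM126A*, which takes part in complex I assembly, fell by 0.63 (adjusted p = 0.00438) and *NDUFAF4* by 0.60 (0.00388), in edgeR. After GC correction *NDUFAF4* was at -0.39 and still called, while *SURF1* was not (0.21, edgeR adjusted p = 0.103). *TMEM70*, needed for ATP synthase assembly, fell by 0.51 (edgeR adjusted p = 0.0023). With the block, 27 of these 60 factors were lower and 3 higher, where 22.4% and 23.2% of all genes were.

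Of 20 tested genes for processing and stability of mitochondrial RNA, 11 were called lower and none higher (14.0% and 11.1% of all genes were), with a median log2 fold change of -0.30, against 0.03 over all genes. *SLIRP*, which with LRPPRC protects mitochondrial messages, was at 71.3, 72.1, 75.2 and 75 CPM with serum and 52.6, 56.1, 59.2 and 44.4 CPM without, and fell by 0.47 (SE 0.09, edgeR adjusted p = 0.00555). *FASTKD5*, which acts on the ends of mitochondrial messages, fell by 0.38 (edgeR adjusted p = 0.00549). Of 16 genes for replication and transcription of the mitochondrial genome, 3 were lower and 1 higher, near the background of 14.0% and 11.1%. *TFAM*, the factor that packages and starts transcription of this genome, fell by 0.52 (SE 0.10, edgeR adjusted p = 0.00707), from 142, 119, 134 and 111 CPM to 97.5, 93.6, 87.1 and 74.5 CPM. After GC correction it was at -0.30 and still called (edgeR adjusted p = 0.00802). *TFB1M*, a methyltransferase of the small mitochondrial ribosomal RNA, rose by 0.35 (SE 0.09, edgeR adjusted p = 0.0227, kept in 5 of 12 leave-out fits).

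Among 11 tested transcriptional regulators of respiratory genes, 4 were lower and 1 higher, the latter near the background of 11.1% (14.0% of all genes were lower). *YY1* fell by 0.31 (edgeR adjusted p = 0.0116), *PPRC1*, a coactivator of the PGC-1 family, by 0.30 (0.0077), *PPARGC1B* by 0.33 (0.0338) and *NRF1* by 0.30 (0.0396). The last 2 were kept in 2 and 1 of the 12 leave-out fits. *ESRRG*, an estrogen-related receptor, rose by 1.59 (SE 0.28, edgeR adjusted p = 0.00432), from 0.186 to 0.35 CPM to 0.711 to 1.14 CPM, a low level in both conditions. *PPARGC1A* averaged 0.292 CPM with serum and was not tested. Of 17 genes of the tricarboxylic acid cycle and pyruvate dehydrogenase, 6 were lower and none higher (14.0% and 11.1% of all genes were), and *CS*, citrate synthase, fell by 0.48 (SE 0.06, edgeR adjusted p = 0.0014). *NDUFAB1*, the acyl carrier protein of complex I, which the symbol rule leaves out, fell by 0.57 (SE 0.07, edgeR adjusted p = 0.00159), from 115, 108, 106 and 113 CPM to 76.4, 76.5, 79.8 and 65.5 CPM.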

How the data were processed

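RNA was sequenced from 8 libraries of A375 cells, and samples were grouped by line and serum from the submitters' labels. The deposited files of both libraries labelled WT4 carry another line name than WT4, and the label was used. Fits without WT4 are among the alternatives. The deposited files hold raw counts of reads on genes, which the authors had not normalized. The submitters' processing notes name cutadapt, TopHat2 2.0.11, HTSeq and GRCh38, while the study's methods name hg19. The annotation release and strand setting are not given in the sources used here. Reads without a unique place were not counted, which lowers genes with close copies.

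The test was edgeR 4.0.16 (R 4.3.3), with robust glmQLFit and glmQLFTest, a prior count of 2, TMM factors, filterByExpr as the filter and no block. Symbols were matched for 55604 of 58051 genes. Positions are from RefSeq (GRCh38.p14), while lengths, GC content and exon overlap were computed on GRCh37 with GENCODE gene models, so they may differ from the models counted. The same line in both conditions pairs the libraries: deviations from condition means correlated at 0.40 to 0.60 within lines and at most 0.13 between lines. GC content was corrected with a lowess offset per library (span 0.3).

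The members, lists and tests were chosen with earlier results of these data known. Named genes are the 13 mitochondrial members, up to 3 calls per complex and direction by p, the highest and lowest level per complex, paralogous isoforms, up to 2 calls per list and direction and the mitochondrial ribosomal RNAs. Others named in the text were chosen after their values were seen. Alternatives were DESeq2 1.42.0, limma 3.58.1 voom, other scalings and filters, protein-coding genes alone, the block, GC correction and left-out libraries and lines. The fits were also run on simulated data, and the outcome is not reported here.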

Additional observations from a re-analysis of the deposited data

Results flagged for a closer look

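In 8 of 138 sets of 4 libraries searched, 1 library lay far from the other 3 by Dixon's ratio, where chance gives about 6.9. *ATP5MC1* was at 71.3 CPM in WT4 with serum, and between 56.9 and 58.7 CPM in the other lines. *MT-CO3* was at 1000 CPM in WT2 with serum, below 1217 to 1260 CPM. *UQCR10* was at 29 CPM in WT1 with serum, below 32.2 to 32.9 CPM. *NDUFS5* was at 100 CPM in WT3 without serum, above 80.2 to 82.7 CPM. *COX7A1* was at 0.18 CPM in WT3 without serum, below 0.426 to 0.45 CPM. Among genes of the lists, *TMEM126A* and *MTERF3* were lowest in WT4 with serum, at 17.6 CPM against 23.4 to 23.8 CPM and 23.5 CPM against 28.4 to 28.8 CPM. *SDHAF3* was at 12.6 CPM in WT1 without serum, above 10.4 to 10.8 CPM.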

How the results depend on the processing

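Without the block, 15 nuclear members were called lower and 1 higher. Leaving out single libraries gave 12 to 20 lower, where 9.3% to 17.9% of all genes were. Leaving out a line gave 6 (without WT1), 9 (WT2), 11 (WT3) and 17 (WT4), where 5.4%, 6.7%, 6.5% and 17.4% of all genes were lower. Higher calls ranged from 0 to 3 in these fits, where 3.4% to 15.6% of all genes were higher. They were 0 with RLE scaling, no filter or GC correction, where 10.6%, 4.9% and 11.5% of all genes were higher. They were 2 with upper-quartile scaling or protein-coding genes alone (14.2% and 14.1% of all genes). Without the serum libraries of WT1 and WT2, 0 were higher and 4 lower, where 2.0% and 3.9% of all genes were. With the replicate block, 31 were lower and 3 higher, also under RLE scaling, GC correction or scaling without the mitochondrial genome. In these fits 22.4% to 23.1% of all genes were lower and 22.4% to 23.6% higher. The block gave 17 lower and 6 higher with upper-quartile scaling, where 17.6% of all genes were lower and 27.9% higher. Block fits without WT1, WT2, WT3 and WT4 in turn gave 17, 23, 26 and 30 lower and 0, 0, 0 and 7 higher, where 17.0%, 18.8%, 17.8% and 25.1% of all genes were lower and 17.2%, 18.3%, 16.5% and 25.2% higher, and WT3 and WT4 alone 13 and 0 (12.2% and 12.0% of all genes). Library sizes alone gave 11 lower and 4 higher, where 7.7% and 17.9% of all genes were, and with the block 15 and 11, where 14.1% and 33.0% were, with medians of 0.01 for nuclear and 0.12 (0.13 with the block) for mitochondrial members.

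No mitochondrial member was called without the block, except 1 higher with library sizes alone and 0 to 1 in each direction with a library left out. The replicate block gave 4 lower and 5 higher, also with RLE scaling or scaling without the mitochondrial genome, 2 and 5 with GC correction, 3 and 5 with upper-quartile scaling, and 1 and 6 with library sizes alone. Without WT1, WT2, WT3 and WT4 in turn it gave, against the same shares of all genes, 2, 3, 4 and 2 lower and 4, 3, 2 and 5 higher, and with WT3 and WT4 alone 0 and 1. Between lines, 4 nuclear and 10 mitochondrial members differed, where 22.9% of all genes did. Without a filter 10 nuclear members differed, where 15.3% of all genes did. With a line left out, 15.6% to 18.6% of all genes differed, and 2 to 7 nuclear and 2 to 9 mitochondrial members did, lowest without WT2. Median levels with serum were 20.1 RPKM for nuclear members (32.9 on longest and 54.7 on canonical transcripts, 82 TPM) and 801 RPKM for mitochondrial ones (3252 TPM). TPM takes other denominators, and the causes of the other shifts were not tested. Settings that join the block with another scaling or left-out line, library sizes alone, left-out serum libraries and canonical transcripts were added after seeing the data. For named genes, 1922 alternative values kept their side of the threshold, 117 gained a call and 166 lost one, and no called gene changed sign. Depth was high for most members, but p-values rest on 4 lines.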
